A study of Mus musculus with 12 samples.

Results

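Expression of 6 genes for matrix metalloproteinases (Mmp8, Mmp9, Mmp12, Mmp13, Mmp14 and Mmp19) and 3 for tissue inhibitors of metalloproteinases (Timp1, Timp2 and Timp3) was followed through 12 RNA-seq libraries of mouse peritoneal macrophages. These 9 genes, of 41388 in the deposited tables, were picked by symbol as the family's macrophage members. The choice also used their differences between the 2 genotypes, where Mmp8 and Mmp9 were seen to go opposite ways. Those differences are therefore described below with no test. All 9 had enough counts to enter the fit, which held 12914 genes.

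The macrophages were drawn to the peritoneum by thioglycolate, collected on day 4, plated, and stimulated on the following day for 8 h. There were 4 groups of 3 libraries. The stimulated groups received LPS, a bacterial endotoxin, at 100 ng/ml with the saturated fatty acid palmitate at 250 uM. The remaining groups received BSA-PBS vehicle. Within each treatment, 1 group was labelled LysM-PPARg, a knockout of the nuclear receptor PPARγ made with LysM-Cre, and the other came from LysM-Cre mice as control. Every group thus carried LysM-Cre, a recombinase driven from the Lyz2 gene in macrophages and other myeloid cells. Palmitate and LPS were always given together, so their effects cannot be told apart. No label says that libraries of a group came from separate animals or cultures. The p-values therefore weigh differences against the spread between these libraries, which may not be the spread between animals.

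Matrix metalloproteinases are zinc-dependent enzymes that cut collagen, elastin and other proteins around the cell. Most are released as inactive precursors that other proteases open, and TIMPs block the active enzymes by filling the catalytic cleft. Macrophages use them to move through tissue, to clear and remodel matrix, and to trim cytokines and chemokines, and bacterial products are known to induce several of them.

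Mmp13, Mmp12 and Mmp8 lie in the same cluster of metalloproteinase genes on chromosome 9. The 250 bases upstream of each RefSeq start (GRCm38.p6, plus strand) are given here because these neighbours went up, stayed nearly level and went down. Capitals mark matches on either strand to AP-1 (TGANTCA), NF-kB, the TATA box (TATAAA) or the PEA3 site of ETS factors (AGGAAG).
Mmp13, chr9:7272264-7272513: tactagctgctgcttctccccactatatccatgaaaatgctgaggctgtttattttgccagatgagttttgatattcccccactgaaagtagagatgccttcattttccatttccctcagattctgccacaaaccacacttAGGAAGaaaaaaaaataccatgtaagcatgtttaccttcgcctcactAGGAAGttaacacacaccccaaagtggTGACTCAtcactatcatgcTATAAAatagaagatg
Mmp12, chr9:7344147-7344396: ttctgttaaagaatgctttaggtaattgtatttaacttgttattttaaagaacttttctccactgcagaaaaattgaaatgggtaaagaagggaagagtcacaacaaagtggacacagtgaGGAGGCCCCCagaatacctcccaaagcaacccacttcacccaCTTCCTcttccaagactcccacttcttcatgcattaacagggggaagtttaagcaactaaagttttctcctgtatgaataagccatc
Mmp8, chr9:7558179-7558428: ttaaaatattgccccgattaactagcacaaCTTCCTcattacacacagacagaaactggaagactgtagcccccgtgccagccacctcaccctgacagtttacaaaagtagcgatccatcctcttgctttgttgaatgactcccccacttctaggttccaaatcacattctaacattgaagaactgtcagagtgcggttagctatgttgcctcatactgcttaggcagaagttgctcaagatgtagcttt

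The Mmp13 window held the AP-1 letters from 35 bases before the start, TATAAA from 16 bases before it, and AGGAAG at 109 and 62 bases before it. The Mmp12 window held an NF-kB match at 129 bases and a PEA3 match at 87 bases before the start. The Mmp8 window held a PEA3 match at 220 bases before the start and none of the other motifs. The bases just after the start were found in a transcript of the gene for Mmp13 and Mmp12 but not for Mmp8. Distances for Mmp8 therefore rest on the RefSeq start alone. A RefSeq promoter was on hand for 7 of the 9 genes, the exceptions being Mmp9 and Mmp19. Over all 32851 RefSeq promoter windows of this length, AP-1 letters occurred in 6.75%, NF-kB in 7.25%, TATAAA in 12.4% and AGGAAG in 29.5%. Of the 7 windows, AP-1 letters were in 1, NF-kB in 1, TATAAA in 1 and AGGAAG in 6. The PPAR response element, searched as AGGTCA repeated after 1 free base, was in none of the 7 and in 0.0335% of all windows. None of these motifs overlapped in the 3 windows shown.

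The targeted gene, Pparg, had 3.59, 5.04 and 4.73 CPM in stimulated libraries labelled knockout and 3.63, 2.86 and 4.14 CPM in stimulated controls. With vehicle it had 111, 91.0 and 95.9 CPM in libraries labelled knockout and 62.3, 61.6 and 60.96 CPM in controls. Levels thus ran counter to the labels with vehicle (log2 0.69, edgeR adjusted p = 0.00124), while the stimulated groups overlapped (0.33, adjusted p = 0.177). CPM here is counts scaled to the library's total after TMM normalisation. Gene-level counts take in exons outside a deleted part, so the loss of exons was not checked by them, and the group is called "labelled knockout" throughout.

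Library totals ran from 17960457 to 22696385 counts. Treatment separated the libraries on the first principal component (86.2% of variance). On the next one, replicate 1 of the vehicle libraries labelled knockout lay apart, at 31.8 against -6.92 and -10 for the other libraries of its group. Without it, the numbers of the 9 genes called in each comparison below were the same. The macrophage markers Cd68 and Adgre1 averaged 4167 to 5868 CPM and 309 to 754 CPM in the 4 groups. The 7 macrophage markers went both ways with palmitate plus LPS. In libraries labelled knockout 4 were called higher and 3 lower, and in controls 3 higher and 2 lower, beside 69.4% and 66.7% of all genes called. Csf1r and Itgam were lower and Adgre1 higher in both genotypes. Between genotypes, Mertk was the 1 marker of the list called with vehicle (-0.58, edgeR adjusted p = 0.0374), beside 3.8% of all genes. By library total alone, 0 were called there. With palmitate plus LPS 3 were called higher and 1 lower, beside 10% and 6.1% of all genes. Without stimulated replicate 1 labelled knockout, or by library total alone, 1 was called higher and 1 lower. Without vehicle replicate 1 labelled knockout, 5 were called higher and 1 lower. Lyz2, which encodes lysozyme and hosts LysM-Cre, was low for a macrophage gene, averaging 84.3 ± 5.38 CPM in stimulated libraries labelled knockout and 114 ± 6.82 CPM in stimulated controls. With vehicle it averaged 26.6 ± 3.62 CPM in libraries labelled knockout and 21.2 ± 2.12 CPM in controls (SD, n = 3 in each group). These are bulk libraries, in which fewer cells of a type and less RNA per cell cannot be told apart.

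Palmitate plus LPS changed all but 1 of the 9 genes in controls and all 9 in libraries labelled knockout, in both directions. The collagenase Mmp13, the membrane-type enzyme Mmp14 and the inhibitor Timp1 rose between 8.02-fold and 28.0-fold in both genotypes, with smaller rises of Timp3 and Mmp9. Mmp8, Mmp19 and Timp2 fell, and Mmp12, far above the rest in level, moved little. Stimulated and vehicle libraries did not overlap for all 9 genes in libraries labelled knockout, beside 70.4% of genes tested, and for 8 of 9 in controls, beside 74.8%. In controls 5 genes were called higher and 3 lower, where edgeR's quasi-likelihood test called 66.7% of all genes tested at an adjusted p below 0.05 (32% higher and 34.7% lower). In libraries labelled knockout 5 were called higher and 4 lower, against 69.4% of all genes (33.7% higher and 35.6% lower). With so many genes called, these numbers do not set the family apart. The median size of the response was 1.89 on the log2 scale over the 9 genes in controls, beside 0.61 over all genes tested, and 2.09 beside 0.67 in libraries labelled knockout. The 9 genes were chosen with earlier results of these data known, so these medians are a description and do not set the family apart either. Under scaling by library total alone, the median response of all genes shifted by -0.33 in controls and -0.37 in libraries labelled knockout, and the share of calls that were higher was 29.2% in place of 48.0% in controls, and 28.9% in place of 48.6% in libraries labelled knockout. Mmp12 was the only member whose direction depended on it.

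**Figure D1:**
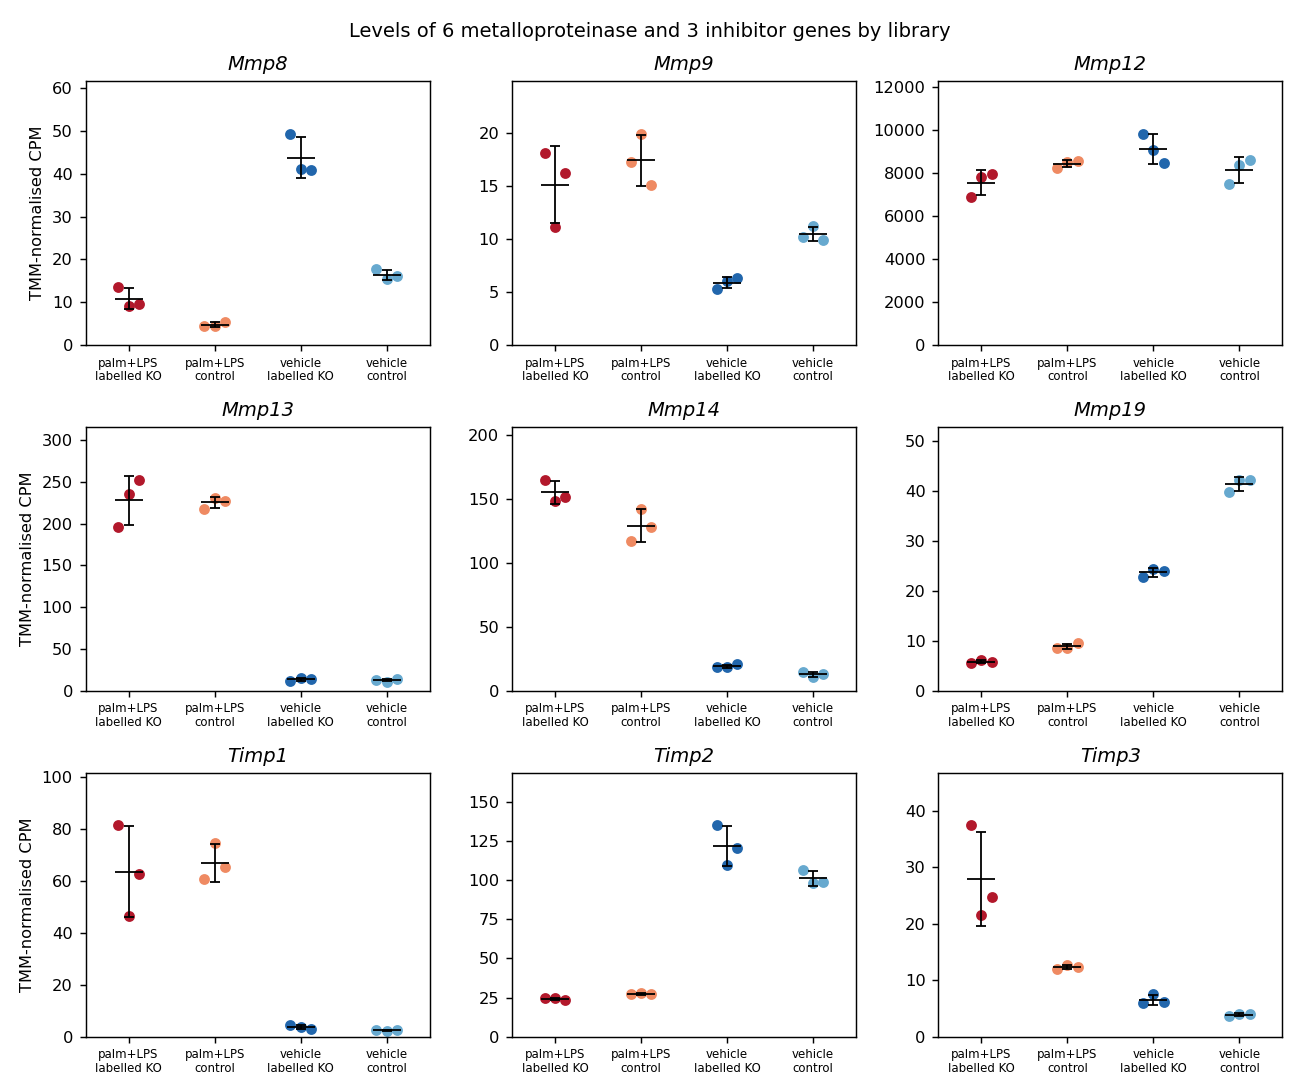
Expression of each of the 9 genes in every library, as TMM-normalised CPM on linear axes that start at 0. Points are libraries, horizontal lines are group means and bars are SD (n = 3); Mmp13, Mmp14 and Timp1 sit high in both stimulated groups, Timp2, Mmp19 and Mmp8 sit low there, and the highest Mmp8 values, 40.9 to 49.3 CPM, are those of vehicle libraries labelled knockout.

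Mmp13, the principal interstitial collagenase of rodents, had 195, 236 and 253 CPM in stimulated libraries labelled knockout and 218, 230 and 228 CPM in stimulated controls. It had 12.1, 15.01 and 13.9 CPM in vehicle libraries labelled knockout and 13.3, 11.0 and 14.1 CPM in vehicle controls. Every stimulated library lay far above every vehicle library, and the genotypes overlapped within each treatment. The log2 change was 4.06 ± 0.12 in libraries labelled knockout (edgeR adjusted p = 7.44e-14) and 4.14 ± 0.12 in controls (adjusted p = 6.44e-14), or 16.6-fold and 17.6-fold.

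Mmp8, the collagenase first known from neutrophil granules, went the other way. It had 13.6, 9.11 and 9.67 CPM in stimulated libraries labelled knockout and 4.42, 4.48 and 5.34 CPM in stimulated controls. It had 49.3, 41.0 and 40.9 CPM in vehicle libraries labelled knockout and 17.7, 15.4 and 16.1 CPM in vehicle controls. No 2 groups overlapped: both stimulated groups lay below both vehicle groups, and within each treatment the libraries labelled knockout lay higher. The treatment lowered it by 4.05-fold in libraries labelled knockout (log2 -2.02 ± 0.14, edgeR adjusted p = 2.29e-09) and by 3.44-fold in controls (-1.78 ± 0.15, adjusted p = 4.02e-08).

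Mmp9, gelatinase B, which degrades denatured collagen and basement membrane, had 18.1, 11.1 and 16.2 CPM in stimulated libraries labelled knockout and 17.3, 19.97 and 15.1 CPM in stimulated controls. With vehicle it had 5.29, 6.01 and 6.35 CPM in libraries labelled knockout and 10.2, 11.2 and 9.95 CPM in controls. The stimulated groups overlapped each other, those labelled knockout reached into the range of vehicle controls, and the vehicle libraries labelled knockout lay below all the rest. It rose 2.56-fold in libraries labelled knockout (log2 1.36 ± 0.16, edgeR adjusted p = 2.03e-06) and 1.66-fold in controls (0.74 ± 0.15, adjusted p = 0.000568). Under scaling by library total alone the change in controls was 0.40, still past the threshold at adjusted p = 0.0438 by edgeR.

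Neutrophils store both Mmp8 and Mmp9, so their marker list was read beside these genes. The 11 neutrophil markers summed to 135 to 161 CPM in stimulated libraries labelled knockout, 102 to 112 in stimulated controls, 67.2 to 74.4 in vehicle libraries labelled knockout and 63.4 to 65.4 in vehicle controls. Most of that sum was Csf3r, the G-CSF receptor, at 136, 90.6, 63.0 and 57.2 CPM on average in the same 4 groups. Ly6g was at 0 in all 12 libraries, S100a9 was at 0 in 11 of 12, and Mpo, Elane, Ngp and Retnlg reached at most 0.210 CPM in any library. S100a8, a calprotectin subunit, averaged 6.93 ± 0.33 CPM in stimulated libraries labelled knockout, 14.99 ± 2.55 in stimulated controls, 5.24 ± 0.70 in vehicle libraries labelled knockout and 4.99 ± 1.22 in vehicle controls. Cxcr2, a neutrophil chemokine receptor, was the 1 marker of the list called between genotypes with vehicle, where edgeR called 3.8% of all genes and 2.11% higher. It averaged 1.18 ± 0.16 CPM in vehicle libraries labelled knockout and 0.40 ± 0.14 CPM in vehicle controls, and 0.0196 and 0.0351 CPM in the stimulated libraries labelled knockout and stimulated controls. With palmitate plus LPS, where 16.1% of all genes were called between genotypes, Csf3r was called higher (0.59 ± 0.09, edgeR adjusted p = 0.000281) and S100a8 lower (-1.11 ± 0.17, adjusted p = 0.000367). The granule genes Camp and Ltf were called higher and lower with treatment in both genotypes, at low levels. Camp averaged 0.482, 0.777, 0.0349 and 0 CPM, and Ltf 0.129, 0.159, 1.445 and 1.64 CPM, in stimulated libraries labelled knockout, stimulated controls, vehicle libraries labelled knockout and vehicle controls. The part of these markers in the Mmp8 and Mmp9 values was not tested.

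Mmp12, the macrophage elastase, was by far the most abundant of the family. It had 6876, 7834 and 7968 CPM in stimulated libraries labelled knockout and 8245, 8529 and 8561 CPM in stimulated controls. It had 9834, 9087 and 8474 CPM in vehicle libraries labelled knockout and 7475, 8380 and 8635 CPM in vehicle controls. Stimulated and vehicle libraries overlapped in controls and did not in libraries labelled knockout. The log2 change was -0.27 ± 0.09 in libraries labelled knockout (edgeR adjusted p = 0.0104) and 0.05 ± 0.09 in controls (adjusted p = 0.633). The call in libraries labelled knockout was lost without stimulated replicate 1 labelled knockout (-0.21, edgeR adjusted p = 0.0662), and under scaling by library total alone the changes were -0.64 and -0.28, both called (edgeR adjusted p = 5.66e-07 and 0.00135).

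Mmp14, a membrane-anchored enzyme that cuts fibrillar collagen and opens pro-MMP2, had 165, 148 and 152 CPM in stimulated libraries labelled knockout and 117, 142 and 128 CPM in stimulated controls. The vehicle libraries had 18.5, 18.8 and 20.7 CPM where labelled knockout and 14.9, 11.1 and 12.9 CPM in controls. All 4 groups stood apart from each other, in that order. The rise was 8.02-fold in libraries labelled knockout (log2 3.0 ± 0.11, edgeR adjusted p = 9.5e-13) and 9.91-fold in controls (3.31 ± 0.11, adjusted p = 4.14e-13). Mmp2, the enzyme it opens, was named outside the rule after its values were seen. It averaged 1.79 ± 0.38 CPM in stimulated libraries labelled knockout, 1.14 ± 0.13 in stimulated controls, 1.147 ± 0.118 in vehicle libraries labelled knockout and 1.09 ± 0.42 in vehicle controls, with no treatment call (edgeR adjusted p = 0.0525 in libraries labelled knockout and 0.816 in controls).

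Mmp19, known in humans for cutting basement membrane components, had 5.47, 6.07 and 5.78 CPM in stimulated libraries labelled knockout and 8.63, 8.53 and 9.48 CPM in stimulated controls. With vehicle it had 22.7, 24.4 and 24.0 CPM in libraries labelled knockout and 39.7, 42.3 and 42.2 CPM in controls. The groups did not overlap, and controls lay higher within each treatment. It fell by 4.11-fold in libraries labelled knockout (log2 -2.04 ± 0.09, edgeR adjusted p = 1.53e-11) and by 4.66-fold in controls (-2.22 ± 0.09, adjusted p = 2.93e-12). On the opposite strand, 789 of the gene's 3410 exon bases are shared with Tmem198b, which held 66 to 432 counts per library. The strand setting of the counting is not given in the sources used here, so reads from the shared bases cannot be told apart.

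**Figure D2:**
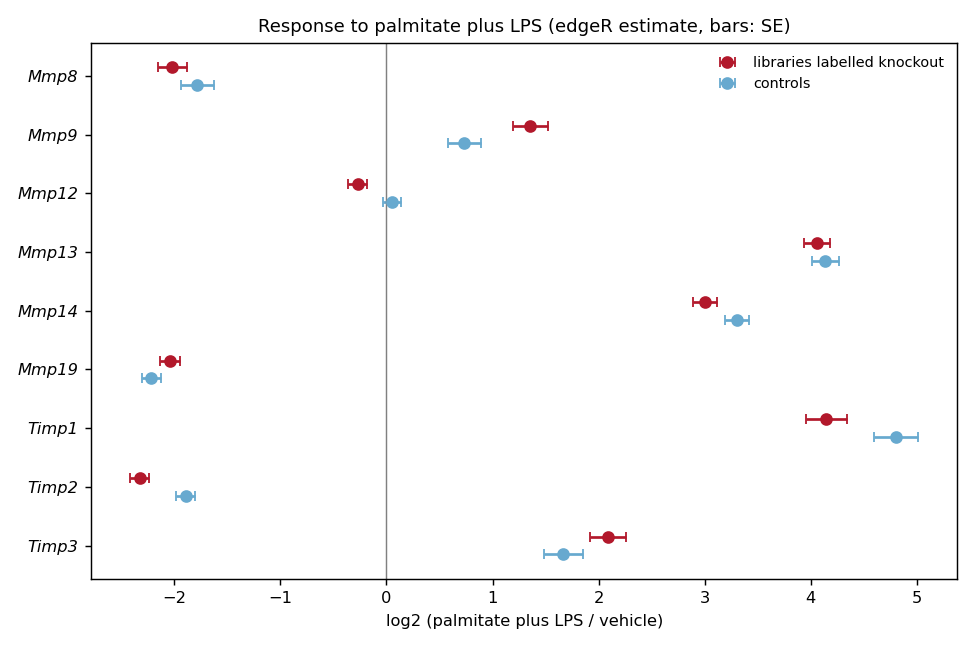
Log2 change with palmitate plus LPS against vehicle for the 9 genes, in libraries labelled knockout and in controls, as edgeR estimates with SE bars. Timp1, Mmp13 and Mmp14 lie at 3.0 or above in both, Timp2, Mmp19 and Mmp8 lie between -2.33 and -1.78, and Mmp12 lies near 0.

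Among the inhibitors, Timp1 and Timp3 rose with treatment and Timp2 fell. Timp1, the secreted and inducible TIMP, had 81.3, 46.5 and 62.6 CPM in stimulated libraries labelled knockout and 60.5, 74.7 and 65.3 CPM in stimulated controls. Vehicle libraries had 4.30, 3.58 and 2.93 CPM where labelled knockout and 2.61, 2.07 and 2.47 CPM in controls. The stimulated libraries of both genotypes overlapped and lay far above every vehicle library. The change was 17.7-fold in libraries labelled knockout (log2 4.15 ± 0.20, edgeR adjusted p = 2.07e-11) and 28.0-fold in controls (4.81 ± 0.21, adjusted p = 6.63e-12).

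Timp2, which both inhibits metalloproteinases and bridges MMP14 to pro-MMP2, had 24.8, 24.5 and 23.5 CPM in stimulated libraries labelled knockout and 27.0, 27.8 and 26.9 CPM in stimulated controls. It had 135, 109.5 and 121 CPM in vehicle libraries labelled knockout and 107, 98.3 and 98.9 CPM in vehicle controls. The stimulated groups lay below the vehicle groups with no overlap anywhere. It fell by 5.02-fold in libraries labelled knockout (log2 -2.33 ± 0.09, edgeR adjusted p = 1.38e-12) and by 3.72-fold in controls (-1.89 ± 0.09, adjusted p = 1.67e-11).

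Timp3, a matrix-bound inhibitor that also blocks the sheddase ADAM17, had 37.4, 21.6 and 24.8 CPM in stimulated libraries labelled knockout and 11.9, 12.7 and 12.4 CPM in stimulated controls. With vehicle it had 5.97, 7.48 and 6.10 CPM in libraries labelled knockout and 3.66, 3.94 and 4.09 CPM in controls. All 4 groups stood apart. It rose 4.26-fold in libraries labelled knockout (log2 2.09 ± 0.17, edgeR adjusted p = 1.93e-08) and 3.17-fold in controls (1.67 ± 0.18, adjusted p = 8.15e-07). Timp3 shares 1733 exon bases with Syn3 on the opposite strand, which held at most 6 counts in a library.

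Fibroblasts and mesothelial cells also make TIMPs, and 11 of their markers had counts in every group. Their sum ran from 199 to 349 CPM in stimulated libraries labelled knockout, 144 to 167 in stimulated controls, 151 to 195 in vehicle libraries labelled knockout and 117 to 137 in vehicle controls. With treatment these markers went both ways. Of the 10 tested, 3 were called higher and 2 lower in libraries labelled knockout, beside 33.7% and 35.6% of all genes. In controls 2 were called higher and 5 lower, beside 32% and 34.7%. Pdgfrb rose by log2 4.58 in libraries labelled knockout and 5.73 in controls, while Krt19 changed by -1.64 and -2.46. The highest sum, 349 CPM, was that of stimulated replicate 1 labelled knockout, which also had the highest Timp1 and Timp3 values. Between stimulated libraries labelled knockout and stimulated controls, 6 of the 10 markers that entered the fit were called higher and none lower, where 16.1% of all genes were called in either direction and 10% higher. Without that replicate 1, 3 of the 10 were called higher and none lower, and the Timp3 difference between the same groups was 0.91 on the log2 scale in place of 1.17. Col1a1, a fibrillar collagen chain, averaged 66.6 ± 15.1 CPM in stimulated libraries labelled knockout and 24.7 ± 7.18 CPM in stimulated controls. The part of these cells in the TIMP values was not tested.

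Levels of different genes were compared after division by exon length. That length is the sum of a gene's annotated exon bases, 7237 for Mmp12 and 8144 for Timp3. It can exceed the transcripts present, so orders and shares between genes are approximate. On this scale Mmp12 lay above all other members in each group. It averaged 1045 ± 82.3 CPM per kb in stimulated libraries labelled knockout, 1167 ± 24.0 in stimulated controls, 1262 ± 94.1 in vehicle libraries labelled knockout and 1128 ± 84.2 in vehicle controls. By this measure it ranked 67th, 55th, 39th and 40th among the 12914 genes tested in the same groups. It held 87.0%, 89.1%, 97.0% and 97.3% of the summed per-length level of the 6 metalloproteinases.

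In vehicle controls the order below Mmp12 was Timp2 at 26.0 CPM per kb, Mmp19 at 12.1, Mmp8 at 6.67, Mmp14 at 5.01, Mmp13 at 4.79, Mmp9 at 2.96, Timp1 at 2.69 and Timp3 at 0.479. In that order only Mmp14 with Mmp13, and Mmp9 with Timp1, overlapped with their neighbour. In stimulated controls it was Mmp13 at 84.3 CPM per kb, Timp1 at 75.3, Mmp14 at 49.7, Timp2 at 6.99, Mmp9 at 4.93, Mmp19 at 2.60, Mmp8 at 1.93 and Timp3 at 1.52. There only Mmp13 and Timp1 overlapped. In vehicle libraries labelled knockout Mmp8 came after Timp2, at 17.8 ± 1.97 CPM per kb, and Mmp19 after Mmp14, at 6.96 ± 0.26. In stimulated libraries labelled knockout Mmp13 (85.2), Timp1 (71.5) and Mmp14 (59.7) followed Mmp12 and overlapped in turn, Timp2 came next at 6.23, and Mmp19 was lowest at 1.69 CPM per kb.

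**Figure D3:**
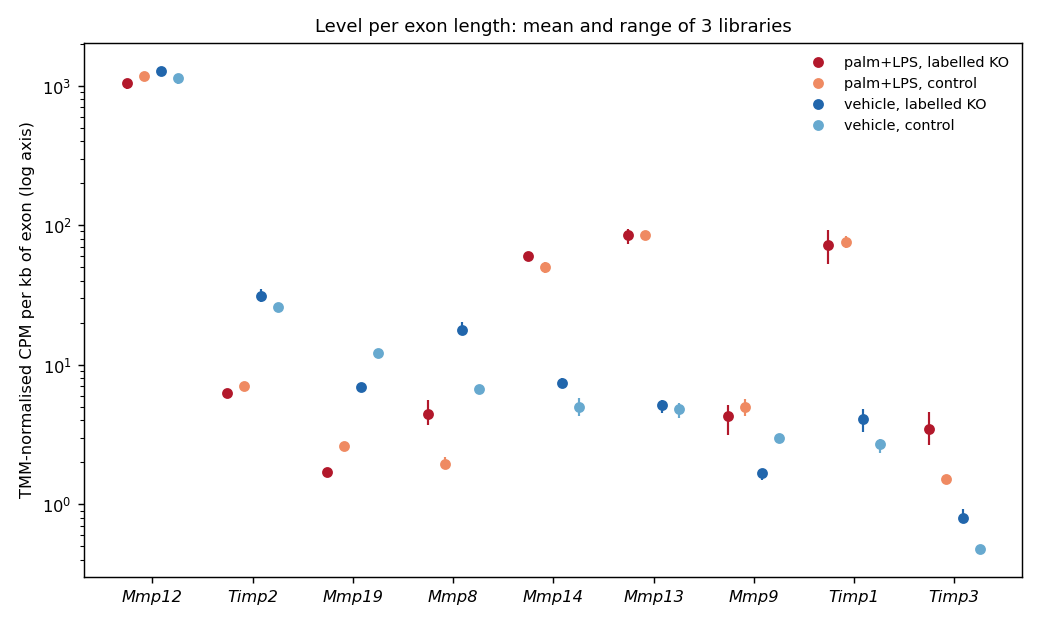
TMM-normalised CPM per kb of exon, on a log axis, for each gene in the 4 groups; points are means and lines span the lowest to the highest of 3 libraries. Mmp12 lies at 1045 to 1262 CPM per kb on average, and Timp1 and Timp2 change places between vehicle and stimulated groups.

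The makeup of the inhibitors turned over with treatment. Timp1 held 87.8 ± 2.07% of the summed per-length TIMP level in stimulated libraries labelled knockout and 89.8 ± 0.80% in stimulated controls. It held 11.2 ± 1.56% in vehicle libraries labelled knockout and 9.20 ± 0.78% in vehicle controls, where Timp2 held 86.5 ± 1.75% and 89.2 ± 0.74%. The 3 TIMPs together summed to 81.2 ± 20.6 CPM per kb in stimulated libraries labelled knockout, 83.8 ± 8.26 in stimulated controls, 36.1 ± 3.72 in vehicle libraries labelled knockout and 29.1 ± 1.41 in vehicle controls. Leaving out Mmp12, the other 5 metalloproteinases summed to 155 ± 7.21, 143 ± 7.55, 39.0 ± 0.79 and 31.6 ± 1.18 CPM per kb in the same groups. Of that sum, Mmp13 and Mmp14 made up 54.7% and 38.5% in stimulated libraries labelled knockout and 58.8% and 34.6% in stimulated controls. With vehicle the leading share was Mmp8 in libraries labelled knockout, at 45.7 ± 4.09%, and Mmp19 in controls, at 38.5 ± 2.58%.

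Mmp8, Mmp12 and Mmp13 belong to a stretch of chromosome 9 that holds 10 Mmp genes within 427072 bases, of which 6 entered the fit. From Mmp13 at one end (GRCm38 chromosome 9, 7272514 to 7283333) to Mmp7 at the other, the response was not uniform. Mmp3, stromelysin-1, rose by log2 3.81 ± 0.32 in libraries labelled knockout and 3.56 ± 0.29 in controls (edgeR adjusted p = 2.45e-08 and 2.04e-08). Mmp10, stromelysin-2, rose by 1.35 ± 0.31 and 1.72 ± 0.41 (adjusted p = 0.00128 and 0.00181). Mmp27, next to Mmp8, fell by 2.42 ± 0.24 and 2.54 ± 0.25 (adjusted p = 2.2e-07 and 2.13e-07). Mmp3, Mmp10 and Mmp27 were low in level, averaging 3.81, 1.86 and 2.86 CPM in their highest group. They had at most 88, 44 and 79 counts in any library, against 4809 for Mmp13. Mmp12 (7344381 to 7369499) lay between the strongly induced Mmp13 and Mmp3, and Mmp8 (7558429 to 7568486) and Mmp27 beyond Mmp10. The remaining 4 genes, Mmp1b, Mmp1a, Mmp20 and Mmp7, had at most 1 count in any library. Mmp12 and Mmp1b share 157 exon bases on opposite strands.

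**Figure D4:**
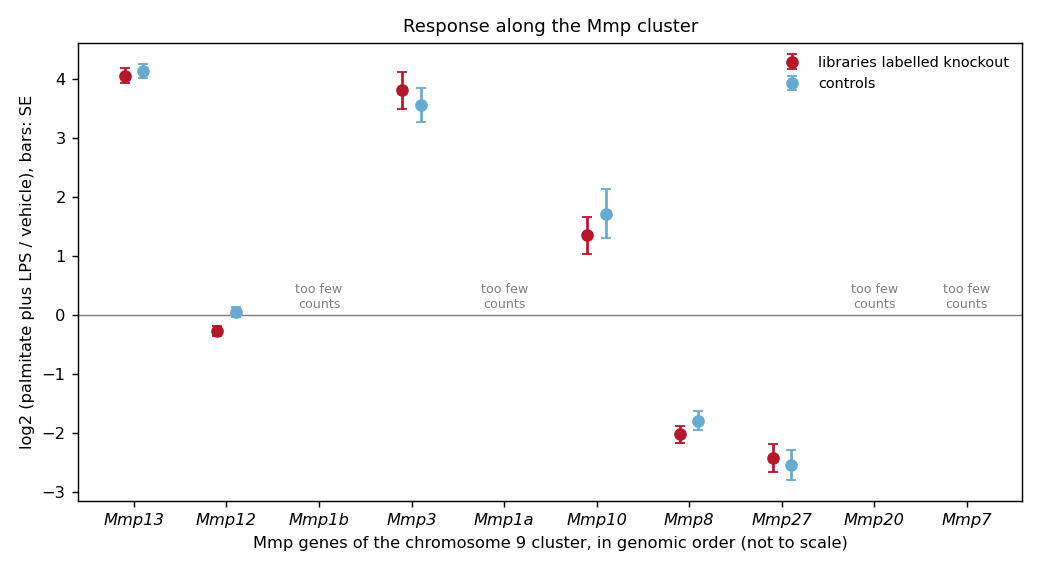
Log2 change with palmitate plus LPS, with SE bars, for the Mmp genes of the chromosome 9 stretch in genomic order, in libraries labelled knockout and in controls. Mmp13, Mmp3 and Mmp10 lie above 0, Mmp8 and Mmp27 below it, and Mmp12 close to it; 4 genes had too few counts.

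The members elsewhere in the genome were Mmp9 (GRCm38 chromosome 2, 164940780 to 164955850), Mmp14 (chromosome 14, 54431604 to 54441258), Mmp19 (chromosome 10, 128790953 to 128800824), Timp1 (chromosome X, 20870166 to 20874735), Timp2 (chromosome 11, 118301069 to 118355740, minus strand) and Timp3 (chromosome 10, 86300372 to 86349506).

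Whether the response itself depended on genotype was tested as an interaction, the log2 response in libraries labelled knockout minus that in controls. It was called for Timp2 alone among the 9 genes (-0.43 ± 0.12, edgeR adjusted p = 0.0405), where 8.05% of all genes were called (4.7% higher and 3.35% lower). DESeq2 called 1 of the 9 as well, and 4 of the 9 had an unadjusted p below 0.05. The Timp2 call was held in 6 of 17 alternative settings, with edgeR or DESeq2 adjusted p between 0.0131 and 0.109. It was lost when any 1 of the 9 libraries other than the vehicle ones labelled knockout was left out. The interaction equals the genotype difference with palmitate plus LPS minus that with vehicle, and the choice of genes used genotype differences. Its p-values for the 9 genes are therefore not independent of that choice and give no separate support.

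The other 8 genes were not called for the interaction, which does not show that they responded alike. Mmp9 was at 0.62 ± 0.22 (edgeR adjusted p = 0.0976), Mmp12 at -0.32 ± 0.12 (adjusted p = 0.11) and Timp1 at -0.66 ± 0.28 (adjusted p = 0.154). Timp3 was at 0.42 ± 0.25, Mmp14 at -0.31 ± 0.15, Mmp8 at -0.23 ± 0.21, Mmp19 at 0.18 ± 0.13 and Mmp13 at -0.08 ± 0.16, with edgeR adjusted p between 0.204 and 0.772. Some alternatives called others of these genes. Mmp12 was called by library total alone (-0.35, edgeR adjusted p = 0.0296) and with no filter on low counts (-0.32, adjusted p = 0.0385). Mmp9 was called with no filter (0.63, edgeR adjusted p = 0.0227) and without stimulated replicate 2 labelled knockout (0.80, adjusted p = 0.0247), and Timp1 with no filter (-0.65, adjusted p = 0.0175). By library total alone, the share of interaction calls that were higher was 33.0% in place of 58.4%.

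The genotype differences, on which the genes were chosen, are given as description. With vehicle, Mmp8 was 2.67-fold higher in libraries labelled knockout (log2 1.42 ± 0.13), Timp3 1.68-fold (0.75 ± 0.19), Timp1 1.5-fold (0.58 ± 0.24), Mmp14 1.49-fold (0.57 ± 0.11) and Timp2 1.2-fold (0.27 ± 0.08). Mmp9 was 1.77-fold lower (-0.83 ± 0.16) and Mmp19 1.74-fold lower (-0.80 ± 0.08). Mmp12 and Mmp13 differed by 0.16 ± 0.09 and 0.10 ± 0.12 and overlapped. The groups did not overlap for 7 of the 9 genes, beside 19.8% of all genes tested.

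With palmitate plus LPS, Mmp8 was 2.27-fold higher in libraries labelled knockout than in controls (log2 1.18 ± 0.16), Timp3 2.26-fold (1.17 ± 0.16) and Mmp14 1.2-fold (0.27 ± 0.10). Mmp19 was 1.54-fold lower (-0.62 ± 0.10), Timp2 1.12-fold lower (-0.17 ± 0.09) and Mmp12 1.12-fold lower (-0.16 ± 0.09). Mmp9 (-0.20 ± 0.15), Timp1 (-0.08 ± 0.16) and Mmp13 (0.02 ± 0.11) overlapped between genotypes. The groups did not overlap for 6 of the 9 genes, beside 42.2% of all genes tested. Mmp8, Timp3 and Mmp14 were thus higher and Mmp19 lower in libraries labelled knockout under both treatments, while the Mmp9 libraries stood apart with vehicle and overlapped after stimulation.

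**Figure D5:**
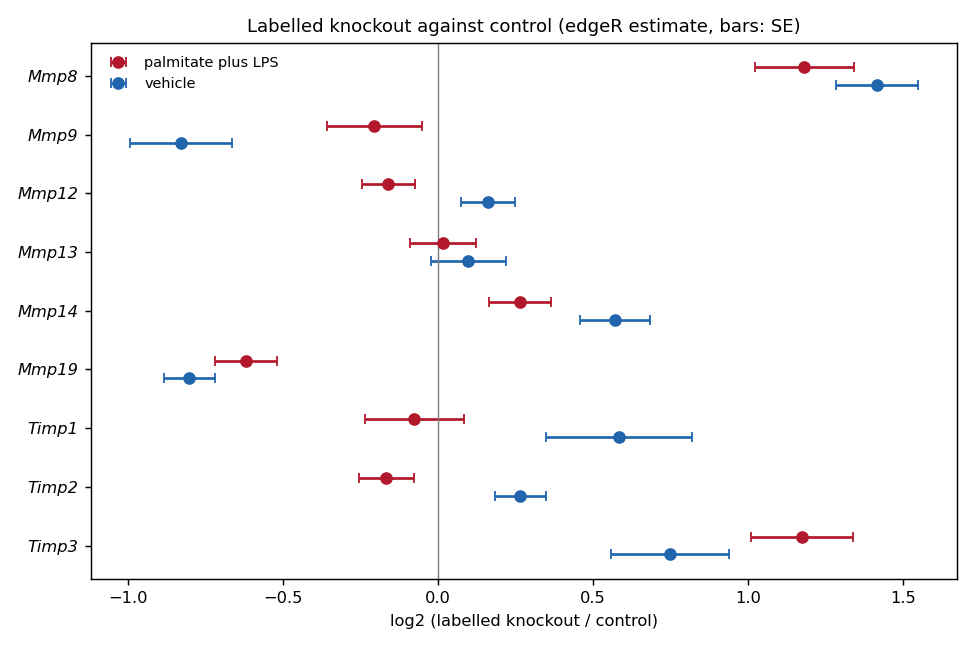
Log2 difference between libraries labelled knockout and controls for the 9 genes, with palmitate plus LPS and with vehicle, as edgeR estimates with SE bars. Mmp8 lies at 1.18 and 1.42, Timp3 at 1.17 and 0.75, Mmp19 at -0.62 and -0.80, and Mmp9 at -0.20 and -0.83.

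The genes whose pattern over the 12 libraries was most like that of Mmp8 were Pld4, Lilra6 and Angpt2, with a root mean square difference of centred log2 CPM of 0.311, 0.325 and 0.339. Pld4, a lysosomal phospholipase D family member, averaged 63.6 CPM in stimulated libraries labelled knockout, 39.3 in stimulated controls, 290.4 in vehicle libraries labelled knockout and 151 in vehicle controls. For Mmp9 they were Map3k8 at 0.167, Lcp1 at 0.224 and Acadl at 0.248. Map3k8, a kinase in Toll-like receptor signalling, averaged 84.6, 87.8, 35.5 and 57.5 CPM in the same 4 groups. The likeness was taken over 7388 genes with at least 10 CPM in their highest group and is a description.

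The proteases and inhibitors that open, hold or cut alongside metalloproteinases were read from further gene lists. Of 11 genes of the activating system, 8 entered the fit and all 8 were called higher in both genotypes (6 of 8 in controls under scaling by library total alone), beside 33.7% of all genes called higher in libraries labelled knockout and 32% in controls. Plau, the urokinase that generates plasmin, averaged 76.7 ± 13.5 CPM in stimulated libraries labelled knockout, 54.0 ± 4.29 in stimulated controls, 10.9 ± 0.99 in vehicle libraries labelled knockout and 8.75 ± 0.85 in vehicle controls. Its log2 response was 2.82 ± 0.13 in libraries labelled knockout and 2.63 ± 0.13 in controls (edgeR adjusted p = 1.74e-11 and 5.46e-11). Serpinb2, an inhibitor of plasminogen activators on the same list, rose by log2 5.50 ± 0.17 in libraries labelled knockout and 5.94 ± 0.18 in controls (edgeR adjusted p = 1.22e-13 and 8.31e-14). Between stimulated libraries labelled knockout and stimulated controls, 5 of the 8 were called higher and 1, Serpine2, lower, beside 10% and 6.1% of all genes; without stimulated replicate 1 labelled knockout, 2 were called higher and 1 lower.

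Among the 17 other Mmp genes, 7 entered the fit. In libraries labelled knockout 3 were called higher and 1 lower, and in controls 3 higher and 2 lower, beside 69.4% and 66.7% of all genes called. Besides those of the chromosome 9 stretch, Mmp25, a membrane-anchored enzyme known from leukocytes, averaged 2.59 ± 0.20 CPM in stimulated libraries labelled knockout, 0.74 ± 0.15 in stimulated controls, 0.0440 in vehicle libraries labelled knockout and 0.0542 in vehicle controls. Mmp23 fell in controls by 1.10 ± 0.32 on the log2 scale (edgeR adjusted p = 0.00716) and was at -0.03 ± 0.29 in libraries labelled knockout (adjusted p = 0.924). Its interaction was not called (1.07 ± 0.43, edgeR adjusted p = 0.135), nor in any of 17 alternatives, so a difference between these responses is not shown.

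Of 11 ADAM sheddases and their partners, 10 entered the fit, with 3 called higher and 4 lower in each genotype, near the same 69.4% and 66.7% of all genes. By library total alone, 3 were called higher and 6 lower in libraries labelled knockout and 2 higher and 6 lower in controls. Adam8 fell to 85.7 ± 0.70 CPM in stimulated libraries labelled knockout, against 627 ± 56.8 CPM with vehicle, and to 60.2 ± 0.62 CPM in stimulated controls, against 487 ± 23.7 CPM with vehicle. Adam17, which releases TNF and is blocked by TIMP3, rose by log2 1.13 ± 0.13 in libraries labelled knockout and 0.63 ± 0.13 in controls (edgeR adjusted p = 1.51e-06 and 0.000583), and the call in controls was lost under scaling by library total alone (0.30, edgeR adjusted p = 0.127). Its trafficking partners Rhbdf2 and Rhbdf1 rose by 2.26 ± 0.14 and 2.22 ± 0.27 in libraries labelled knockout and by 1.98 ± 0.14 and 2.95 ± 0.26 in controls.

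Of 19 ADAMTS genes, 9 entered the fit, with 4 higher and 1 lower in libraries labelled knockout and 4 higher and 2 lower in controls, beside 69.4% and 66.7% of all genes called. Adamts4, an aggrecanase, averaged 10.7 ± 0.49 CPM in stimulated libraries labelled knockout, 7.48 ± 0.26 in stimulated controls, 0.175 in vehicle libraries labelled knockout and 0.227 in vehicle controls. Of 9 matrix-degrading cathepsins and cystatins, 8 entered the fit. In libraries labelled knockout 2 were higher and 5 lower, beside 33.7% and 35.6% of all genes. In controls 3 were higher and 4 lower, beside 32% and 34.7%. By library total alone, 1 was higher and 6 lower in libraries labelled knockout, and 2 higher and 5 lower in controls. Controls had 3 higher and 5 lower without vehicle replicate 1 labelled knockout, and 3 higher and 3 lower without stimulated replicate 1 labelled knockout. Cst7, cystatin F, an inhibitor of cathepsins, rose by log2 7.04 ± 0.17 in libraries labelled knockout and 7.48 ± 0.18 in controls, while the collagen-cutting Ctsk fell by 0.68 ± 0.09 and 0.54 ± 0.09, all past the edgeR threshold.

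Of 10 genes for proteins that bind metalloproteinases or carry them to cells, 7 entered the fit, with 4 higher and 3 lower in libraries labelled knockout and 3 higher and 2 lower in controls, beside 69.4% and 66.7% of all genes called. Lcn2, which binds MMP9 and protects it from breakdown in humans, averaged 25.5 ± 0.96 CPM in stimulated libraries labelled knockout, 37.1 ± 2.46 in stimulated controls, 1.09 ± 0.23 in vehicle libraries labelled knockout and 1.07 ± 0.28 in vehicle controls. Cd44, a surface docking site for MMP9, rose by log2 1.44 ± 0.07 in libraries labelled knockout and 1.39 ± 0.07 in controls. Lrp1, an endocytic receptor that clears metalloproteinases, fell by 1.37 ± 0.13 and 1.59 ± 0.13, each past the edgeR threshold. Of 8 further inhibitors, Timp4 and Reck among them, only Tfpi2 entered the fit, and it rose by 1.83 ± 0.23 in libraries labelled knockout and 2.49 ± 0.24 in controls.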

How the data were processed

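Each library came with 1 deposited gene table: exon positions and length, a raw count, CPM and RPKM. The deposited CPM and RPKM entered no test. Tools named by the submitters' processing notes are STAR 2.0.4b, featureCounts 1.45, Subread and bcl2fastq 2.0, on GRCm38, with options, annotation release and strandedness not given in the sources used here. Per the labels' protocols, RNA was column-purified (Ambion) and libraries used Clontech SMARTer v1. A symbol was found for 40254 of 41388 gene IDs.

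The deposited counts were filtered with filterByExpr by group, scaled by TMM and fitted with edgeR 4.0.16 (R 4.3.3, glmQLFit, robust), 1 mean per group over 12 libraries. P-values were adjusted by Benjamini-Hochberg over all genes of a comparison (threshold 0.05). Changes carry standard errors, levels mean ± SD (n = 3). The fit was tested on simulated data. Alternatives were DESeq2 1.42.0, other scalings, no filter, 2 groups only, a replicate block and leaving out each library.

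The 9 genes and the other lists were chosen with earlier results of these data known. All 9 are named in every comparison. From each other list, up to 4 genes with the smallest p-value in the control response and up to 2 in the interaction could be named, and 1 such gene is not reported here. Promoters are those of RefSeq (GRCm38.p6).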

Additional observations from a re-analysis of the deposited data

Results flagged for a closer look

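By the interaction test, 9 genes of the lists read here responded differently to palmitate plus LPS in libraries labelled knockout and in controls. Over all genes tested, 8.05% were called. In the activating system 1 was higher and 1 lower of 8 tested, and among metalloproteinase-binding proteins 1 was higher of 7. Among macrophage markers 2 were higher and 1 lower of 7, and among neutrophil markers 1 and 1 of 5. Other lists outside the family, each with 1 to 10 genes tested, had 0 called. The number 9 is not read as a result about these lists. Among the 6 metalloproteinase and 3 TIMP genes, Timp2 alone was called. The choice of those family genes used their genotype differences, so the Timp2 p-value is not independent of it. For Timp2, the interaction was -0.43 on the log2 scale, from -2.33 in libraries labelled knockout and -1.89 in controls (edgeR adjusted p = 0.0405, called in 6 of 17 alternatives). For Pcsk7, a proprotein convertase, it was 0.73, from 1.22 and 0.48 (edgeR adjusted p = 0.00514, called in 17 of 17). For Serpine2, protease nexin 1, it was -1.16, from 2.87 and 4.02 (edgeR adjusted p = 0.049, called in 3 of 17). For Thbs1, thrombospondin 1, which binds metalloproteinases, it was 1.27, from 2.28 and 1.01 (edgeR adjusted p = 0.0349, called in 8 of 17). Timp2, Pcsk7, Serpine2 and Thbs1 kept their direction in each of the 17 alternatives. The other 5 were cell type markers. Among macrophage markers, Lyz2 was at -0.76, Mertk at 1.13 and Fcgr1 at 1.31 (edgeR adjusted p = 0.00756, 0.00517 and 0.0303). Among neutrophil markers, S100a8 was at -1.18 and Csf3r at 0.45 (edgeR adjusted p = 0.0113 and 0.0382). Some marker calls depended on the setting. Without vehicle replicate 1 labelled knockout, or without stimulated replicate 1 labelled knockout, 1 macrophage marker was called higher and 1 lower. Without that stimulated replicate, or by library total alone, 0 neutrophil markers were called higher and 1 lower.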

How the results depend on the processing

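All treatment calls of the 9 genes other than Mmp12 held in 18 of 18 settings. The Mmp12 change in controls was -0.28 by library total alone, and -0.011 to 0.092 when 1 library was left out, below 0 only without vehicle control replicate 1. The Mmp13 interaction was -0.17 to 0.0175, above 0 only without vehicle control replicate 2 or stimulated replicate 1 labelled knockout. The cause was not tested.

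Without any filter on low counts, 1875 genes were called for the interaction, against 1039, and 960 for genotype with vehicle, against 491. With only the 2 groups fitted, genotype gave 229 genes with vehicle and 3811 with palmitate plus LPS, against 2081. By library total alone, 34.8% of the genotype calls with palmitate plus LPS were higher, in place of 62.1%. Leaving out 1 library gave 8009 to 9542 genes for treatment in controls and 8441 to 9362 in libraries labelled knockout. For the interaction it gave 428 to 1962: 1752 and 1962 without vehicle replicate 1 or 3 labelled knockout, 467 and 428 without vehicle control 1 or 2, 500 and 451 without stimulated control 2 or 3, and 523, 623 and 510 without stimulated replicate 1, 2 or 3 labelled knockout. For genotype with vehicle it gave 261 to 789: 261, 263 and 322 without vehicle control 1, 2 or 3, and 789 without vehicle replicate 1 labelled knockout. For genotype with palmitate plus LPS it gave 1227 to 4080: 4080 without vehicle replicate 1 labelled knockout, 1269 and 1227 without stimulated control 2 or 3, and 1268 and 1333 without stimulated replicate 1 or 3 labelled knockout.

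Of the 9 genes, the interaction calls were 2 lower by library total alone, 2 lower (Mmp12 and Timp1) and 1 higher (Mmp9) without the filter, where Timp2 was not called (edgeR adjusted p = 0.0547), and 0 to 1 in each direction when 1 library was left out. Treatment calls among them with 1 library left out were 5 higher and 3 to 4 lower in libraries labelled knockout, and 5 higher and 3 lower in controls.

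Deviations from group means correlated at -0.175 to 0.067 between same-numbered replicates and at -0.12 to 0.208 between the others. With 3 libraries per group, these values cannot decide whether the numbers mark paired samples. The main fit treated the libraries as unpaired. With a replicate block, the interaction gave 514 genes, 0 of them among the 9, with Timp2 at edgeR adjusted p = 0.0722. The treatment calls of the 9 genes did not change with the block. The lowest counts, 49 in a library for Timp1 and 81 for Timp3, limit the precision of those genes.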
